A study of Mus musculus with 20 samples.

Results

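The genes described here are 10 genes of glucose breakdown and lactate export, Hk2, Hk3, Pfkp, Pfkl, Pfkfb3, Aldoa, Pgk1, Pkm, Ldha and Slc16a3, chosen by name from the 25219 genes of the expression table, with earlier results of these data known. All 10 were measured in mouse adipose tissue and passed the filter on low counts in every comparison. RNA-seq was performed on inguinal white adipose tissue (iWAT), the subcutaneous fat of the groin, and on brown adipose tissue (BAT), the heat-producing fat, as 5 libraries of Control and 5 of Ai-α4KO tissue per depot. Ai-α4KO mice lost α4, the PP2A-binding protein encoded by Igbp1, by crossing α4 f/f mice with Adiponectin-CreERT2 mice, so that Cre was driven by the Adiponectin promoter and acted in adipocytes after tamoxifen, while the other cells of the depot kept the gene. Control mice, which the labels call WT, carried the floxed alleles but not the transgene, and both groups received tamoxifen at 100 mg/kg in 5 injections over 6 days from 2 months of age. All animals were male on a mixed C57Bl/6 background, and tissue was taken 1 week after recombination. The labels do not say that each library came from its own animal or whether the same mice gave both depots, so the p-values measure the spread between these libraries.

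Glycolysis turns glucose into pyruvate in the cytosol. Hexokinases trap glucose in the cell as glucose-6-phosphate, phosphofructokinase commits the sugar to breakdown, PFKFB enzymes set the level of the activator of phosphofructokinase, and aldolase, phosphoglycerate kinase and pyruvate kinase carry the carbon to pyruvate. Pyruvate then enters mitochondria or is reduced to lactate by lactate dehydrogenase, and lactate leaves the cell through monocarboxylate transporters, of which MCT4, encoded by Slc16a3, is typical of cells that export much lactate, such as fast muscle fibers and activated macrophages. In fat, glucose also supplies the glycerol backbone of triglycerides and, in BAT, fuel for heat production. Several of these steps are served by isozymes that mark different cells: Hk2 is the insulin-responsive hexokinase of fat and muscle, Hk3 is found mainly in myeloid cells, Pfkm is the muscle phosphofructokinase, and Pfkl and Pfkp are named for liver and platelets.

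Promoter sequences were looked at for the 10 genes because the genes of this pathway are classic targets of hypoxia-inducible factors, which bind the core ACGTG or GCGTG. The RefSeq promoter set used here, which does not hold every start site, has 15 start sites for the 10 genes on GRCm38.p6, and the 250 bases upstream of 13 of the 15 held that core on either strand, with at least 1 such site for each of the 10 genes. In the RefSeq set as a whole 38.6% of 32851 start sites held the core, and 41.5% of 27025 genes held it at 1 or more of their start sites. The E-box CACGTG, a palindrome that contains ACGTG and is the core recognised by MYC and carbohydrate-response proteins, was found at 2 of the 15 start sites, 1 of Ldha and 1 of Pfkfb3, against 6.02% of all start sites. The PU.1 core GAGGAAGT, which myeloid genes often carry, was at 0 of the 15 start sites and at 2.44% of all. These matches describe letters in a window and not binding.

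Shown here, 5′ to 3′ along the gene's own strand, are the 250 bases before the start of the 3 genes that were lower in Ai-α4KO of both depots (Hk2, Pfkl, Pfkfb3), of the pair that was higher in Ai-α4KO BAT (Hk3, Slc16a3), and of Ldha. The Ldha window held the most matches to the core in the set, 5, with each CACGTG counted on both strands. By place it did not exceed that of Pfkp, which held 3 matches and no CACGTG. Capitals mark ACGTG or GCGTG on either strand, which reads CACGT or CACGC where the core lies on the opposite strand. The windows are chr6:82774455-82774704, minus strand, for Hk2, chr10:78009808-78010057, minus strand, for Pfkl, chr2:11553930-11554179, minus strand, for the first Pfkfb3 start site in the set, chr13:55021386-55021635, minus strand, for Hk3, chr11:120948817-120949066, plus strand, for Slc16a3 and chr7:46845554-46845803, plus strand, for the first Ldha start site in the set. The Slc16a3 start site lies 583 bases from the gene start in the expression table and that of Pfkl 11 bases from it, while the other 4 are the same base.
Hk2: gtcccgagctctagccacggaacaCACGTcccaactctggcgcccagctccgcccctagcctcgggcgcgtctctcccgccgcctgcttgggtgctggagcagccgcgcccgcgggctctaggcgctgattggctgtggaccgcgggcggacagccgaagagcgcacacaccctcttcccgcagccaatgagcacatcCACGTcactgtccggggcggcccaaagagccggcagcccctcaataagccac
Pfkl: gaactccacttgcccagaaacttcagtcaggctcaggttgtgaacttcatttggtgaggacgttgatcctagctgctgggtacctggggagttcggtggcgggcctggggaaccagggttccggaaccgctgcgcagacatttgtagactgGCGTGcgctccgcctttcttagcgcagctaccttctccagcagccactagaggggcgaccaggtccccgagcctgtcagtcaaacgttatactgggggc
Pfkfb3: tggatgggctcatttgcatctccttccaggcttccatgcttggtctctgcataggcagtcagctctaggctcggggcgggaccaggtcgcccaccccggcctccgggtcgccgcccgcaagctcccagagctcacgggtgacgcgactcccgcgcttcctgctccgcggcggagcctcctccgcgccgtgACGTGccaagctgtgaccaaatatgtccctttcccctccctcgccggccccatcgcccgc
Hk3: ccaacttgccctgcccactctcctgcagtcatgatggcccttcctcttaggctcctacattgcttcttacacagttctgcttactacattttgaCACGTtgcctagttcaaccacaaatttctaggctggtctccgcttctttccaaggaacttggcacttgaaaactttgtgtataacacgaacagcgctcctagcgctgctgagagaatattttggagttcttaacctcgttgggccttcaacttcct
Slc16a3: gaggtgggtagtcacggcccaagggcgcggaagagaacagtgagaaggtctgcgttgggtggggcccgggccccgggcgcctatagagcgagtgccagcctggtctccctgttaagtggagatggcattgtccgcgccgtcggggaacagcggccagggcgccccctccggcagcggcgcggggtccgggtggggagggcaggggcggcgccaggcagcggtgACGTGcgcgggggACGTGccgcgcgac
Ldha: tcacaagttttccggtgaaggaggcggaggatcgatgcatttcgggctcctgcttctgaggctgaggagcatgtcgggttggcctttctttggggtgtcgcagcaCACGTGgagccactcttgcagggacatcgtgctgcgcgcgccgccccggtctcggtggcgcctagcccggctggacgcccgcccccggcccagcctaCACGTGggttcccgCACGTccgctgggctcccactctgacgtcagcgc
Hk3, which was higher in Ai-α4KO, and Pfkl and Pfkfb3, which were lower, each held 1 core in the windows shown. The second start site of Pfkfb3 in the set held 3, with its 1 CACGTG counted on both strands.

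Libraries held 24023371 to 50384446 counts. Igbp1 was 57.5 to 76.6 CPM (reads relative to the TMM-adjusted depth of the library) in Control and 10.1 to 11.1 in Ai-α4KO libraries of iWAT, against 85.4 to 105 and 13.7 to 25.2 in those of BAT, so all 20 libraries matched their labels. The summed level of 10 adipocyte markers, of which 8 were called lower in Ai-α4KO iWAT and 7 in Ai-α4KO BAT, was 33075 to 44849.7 CPM in Control iWAT, 13091 to 18493 in Ai-α4KO iWAT, 26752 to 28894 in Control BAT and 13846 to 17433 in Ai-α4KO BAT. The sum of 6 brown adipocyte markers was 126 to 940.1 CPM in Control against 17.1 to 42.7 in Ai-α4KO for iWAT, with 5 called lower, and 7902 to 12169.6 against 1525 to 3293 for BAT, with 2 called lower, and all 6 were called higher in BAT than in iWAT of either genotype. The part of these changes in the values of the 10 genes was not tested. Skeletal muscle markers set 2 iWAT libraries apart, since Control iWAT 4 had a sum of 7685 CPM and Ai-α4KO iWAT 1 one of 5694, against 17.99 to 193 in the other Control and 5.69 to 122 in the other Ai-α4KO iWAT libraries. Muscle markers were also higher throughout Ai-α4KO BAT, at 14188 to 48127 CPM, than in Control BAT, at 999 to 10207. B cell markers summed to 446 and 178 CPM in Control iWAT 1 and 4 and to at most 12.01 elsewhere. T cell markers summed to 220 and 238 CPM in the same libraries and to at most 57.7 elsewhere. In Ai-α4KO BAT 4 of 6 T cell markers and 3 of 6 fibroblast and progenitor markers were called higher, against 0 of either list in iWAT. In bulk tissue, fewer cells of a type and less RNA per cell cannot be told apart.

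The comparison of Ai-α4KO with Control asks how loss of α4 in adipocytes changed each depot. In iWAT, Hk2, Pfkl, Pfkfb3 and Aldoa fell and Hk3 rose. In BAT, Hk2, Pfkl and Pfkfb3 fell while Hk3 and Slc16a3 rose. Pfkp, Pgk1, Pkm and Ldha did not reach the calling threshold (adjusted p under 0.01 with at least a 2-fold change) in either depot with all libraries, though Pkm and Ldha did in iWAT without the 2 muscle-high libraries, and Ldha also without Ai-α4KO iWAT 1 alone (-1.05, adjusted p = 3.3e-04). In all, 3 of 23 alternatives called Ldha in iWAT and 1 called Pkm. In iWAT 4 of the 10 genes were called lower, against 10.7% of 14604 genes tested, and 1 was called higher, against 11.3%. In BAT 3 were lower, against 13.3% of 14344 genes, and 2 were higher, against 18.2%. The median log2 fold change of the 10 genes was -0.83 in iWAT and -0.40 in BAT, beside 0.01 and -0.03 for all genes tested. Counted in either direction, 5 of 10 were called in each depot, against 22.0% of all genes in iWAT and 31.5% in BAT. By CPM, 5 genes in iWAT lay lower in every Ai-α4KO library than in any Control library (18.3% of all genes) and 2 lay higher (20.7%). In BAT 3 lay lower (23.0%) and 2 higher (24.7%), both shares near those of all genes.

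**Figure D1:**
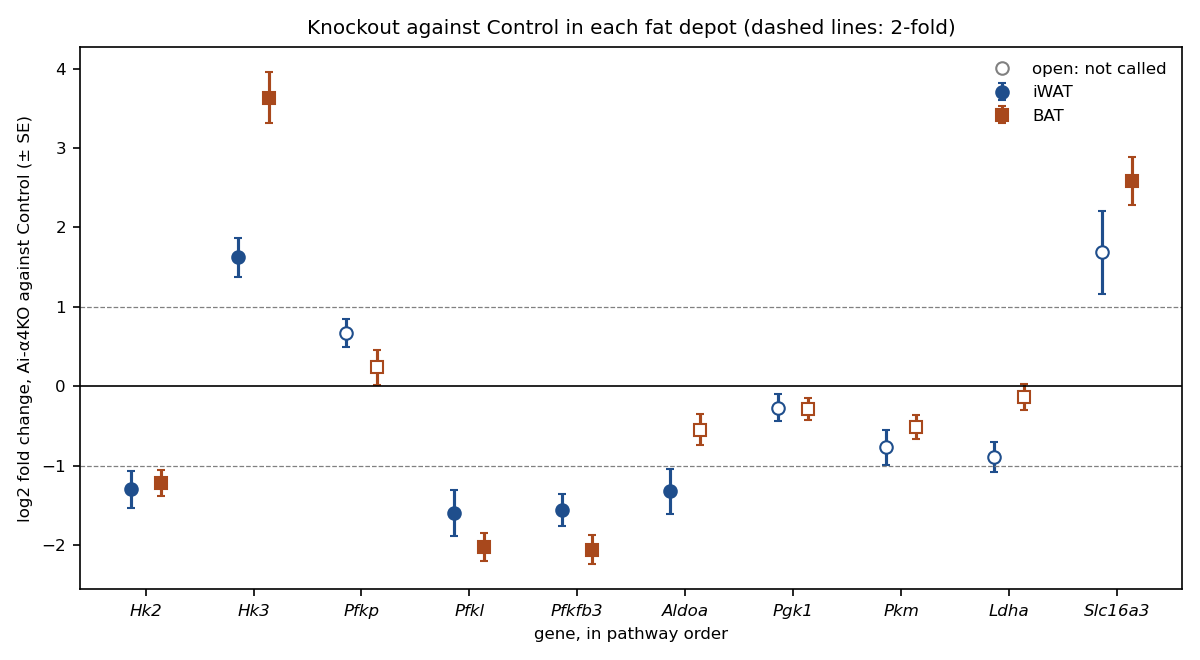
Log2 fold change of Ai-α4KO against Control for the 10 genes in pathway order (x axis), with bars for ± 1 SE, circles for iWAT and squares for BAT, filled where the gene was called. Hk2, Pfkl and Pfkfb3 lie below -1 in both depots, Hk3 lies at 1.63 in iWAT and 3.64 in BAT, and Ldha lies at -0.89 and -0.14.

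**Figure D2:**
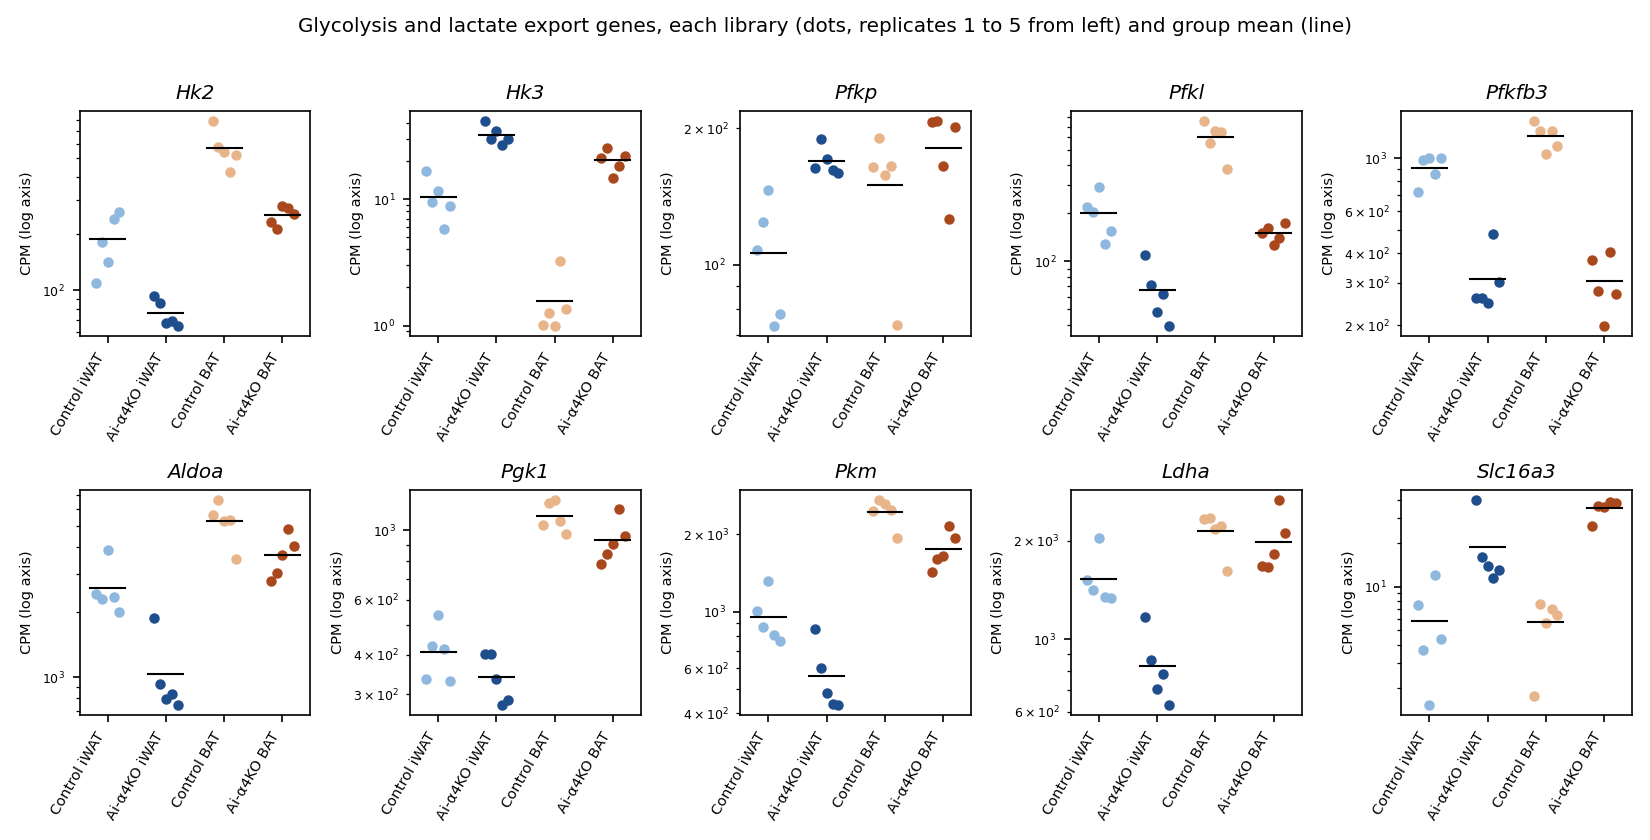
CPM of the 10 genes (log axis) in each of the 20 libraries, as dots ordered by replicate number within each group, with the group mean as a line. Pfkfb3 separates Ai-α4KO from Control in both depots, Hk3 is lowest in Control BAT at 0.997 to 3.21 CPM, and the first Ai-α4KO iWAT library stands above the other 4 in Aldoa and Slc16a3.

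Hk2, the main hexokinase of these libraries, was 109.9, 181, 141, 240.4 and 260.4 CPM in the Control libraries of iWAT and 93.95, 85.6, 67.3, 68.7 and 64.99 in Ai-α4KO iWAT. Every Ai-α4KO library lay below every Control library, though Control 1 was close to Ai-α4KO 1, and Hk2 fell in iWAT (log2 fold change -1.298 ± 0.23 (SE), adjusted p = 6.6e-04, edgeR's quasi-likelihood test, as for all adjusted p here). In BAT, Hk2 was 786, 578, 539.8, 425 and 524 CPM in Control and 232, 210.4, 280.3, 275 and 253 in Ai-α4KO, and it fell (log2 fold change -1.22 ± 0.16 (SE), adjusted p = 4.4e-05). The BAT groups were well apart, but the change lay close to the 2-fold limit and came under it in 4 alternatives, from -0.99 with the muscle marker sum as a covariate to -0.92 with limma on log2(FPKM + 1). The muscle sums of the BAT groups did not overlap, so genotype and muscle RNA are largely confounded in the covariate fit.

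Hk3, the hexokinase of myeloid cells, moved against Hk2. It was 16.6, 9.54, 11.5, 5.76 and 8.79 CPM in the Control libraries of iWAT and 41.1, 30.03, 34.3, 26.8 and 29.6 in Ai-α4KO iWAT, without overlap, and rose (log2 fold change 1.63 ± 0.25 (SE), adjusted p = 2.2e-04). In BAT it was 1.002, 1.25, 0.997, 3.21 and 1.35 CPM in Control and 21.1, 25.2, 14.6, 18.2 and 21.9 in Ai-α4KO, and rose (log2 fold change 3.64 ± 0.33 (SE), adjusted p = 1.8e-06). Control BAT was nearly free of Hk3, and its highest library, Control BAT 4, was also the Control BAT library with the highest macrophage marker sum. The 8 macrophage markers were all called higher in Ai-α4KO of both depots (8 of 8 in each), with sums of 1141 to 1935 CPM in Control iWAT, 7463 to 10050.1 in Ai-α4KO iWAT, 229.8 to 518 in Control BAT and 4292 to 7029 in Ai-α4KO BAT. Neutrophil markers were higher too, with 4 of 6 called in iWAT and 6 of 6 in BAT, and summed to 38.1 to 123 CPM in Control against 175 to 547 in Ai-α4KO for iWAT and to 13.9 to 38.2 against 208 to 391 for BAT. The part of either cell type in the change of Hk3 was not tested. Hk1, the widely expressed hexokinase, was not called in either depot (log2 fold change 0.46 ± 0.20, adjusted p = 0.074 in iWAT and 0.19 ± 0.20, adjusted p = 0.423 in BAT).

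Of the phosphofructokinases, Pfkl fell in both depots. Its level was 218, 204, 295, 129 and 155 CPM in the Control libraries of iWAT and 109, 71.6, 48.5, 62.5 and 39.6 in Ai-α4KO iWAT (log2 fold change -1.598 ± 0.29 (SE), adjusted p = 8.5e-04). In BAT it was 755, 549, 659.9, 648 and 380.3 CPM in Control and 150.1, 162, 127, 141 and 174 in Ai-α4KO (log2 fold change -2.02 ± 0.18 (SE), adjusted p = 1.6e-06). The groups did not overlap in either depot. Pfkp, the platelet-type isozyme, was 108, 124, 146, 73.5 and 78.1 CPM in the Control libraries of iWAT and 164, 189, 171, 161 and 159.7 in Ai-α4KO iWAT. Those groups did not overlap either, but the difference stayed under 2-fold (log2 fold change 0.67 ± 0.18 (SE), adjusted p = 0.0086) and Pfkp was not called. In BAT its ranges of 73.9 to 190.3 and 126 to 207 CPM overlapped (log2 fold change 0.24 ± 0.22, adjusted p = 0.373).

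Pfkfb3 makes fructose-2,6-bisphosphate, the activator of phosphofructokinase, and is the most active kinase of its family. It was 718, 980.4, 998, 854 and 1001 CPM in the Control libraries of iWAT and 259.8, 259, 248, 483 and 302 in Ai-α4KO iWAT, and fell (log2 fold change -1.56 ± 0.20 (SE), adjusted p = 6.1e-05). In BAT it was 1424, 1293, 1042, 1303 and 1119 CPM in Control and 374, 278, 199, 404 and 269.7 in Ai-α4KO, and fell (log2 fold change -2.06 ± 0.19 (SE), adjusted p = 2.0e-06). Even the highest Ai-α4KO library of each depot was below the lowest Control library. Pfkfb3 had the lowest adjusted p of the 10 genes in iWAT and, with Pfkl and Hk3, one of the 3 lowest in BAT.

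Aldoa, the aldolase of muscle and most other tissues, was 2422, 2312, 3868, 2344 and 2014 CPM in the Control libraries of iWAT and 1874, 927, 793, 839.9 and 747 in Ai-α4KO iWAT, and fell (log2 fold change -1.33 ± 0.28 (SE), adjusted p = 0.0021). The first Ai-α4KO library, 1 of the 2 iWAT libraries with high muscle markers, was far above the other 4 of its group. In BAT, where Control held 5638, 6589, 5267, 5349 and 3520.4 CPM and Ai-α4KO 2782, 3024, 3671, 4869.997 and 4069.9, the groups overlapped and Aldoa was not called (log2 fold change -0.55 ± 0.20 (SE), adjusted p = 0.029). Pgk1, the first ATP-yielding enzyme of the pathway, was 331 to 538 CPM in Control and 278 to 403 in Ai-α4KO iWAT, and 972 to 1247 and 779.7 to 1172 in BAT. It overlapped in both depots and its differences were small (log2 fold change -0.27 ± 0.17, adjusted p = 0.193 in iWAT, and -0.29 ± 0.14, adjusted p = 0.086 in BAT). Pkm, pyruvate kinase, was 1009, 869, 1311, 808 and 767 CPM in the Control libraries of iWAT and 854, 601, 481, 435 and 433 in Ai-α4KO iWAT, with Ai-α4KO 1 alone reaching into the Control range (log2 fold change -0.77 ± 0.22 (SE), adjusted p = 0.012). In BAT Pkm was 1941 to 2716 CPM in Control and 1423 to 2149 in Ai-α4KO, a difference that passed the adjusted p but not the fold (log2 fold change -0.52 ± 0.15 (SE), adjusted p = 0.0093). Hk3 and Pfkp share 34 and 276 bases with genes on the other strand, and several of these enzymes have processed pseudogenes, so a part of their counts is uncertain where the counting could not tell the copies apart. The gene-level table does not separate the M1 and M2 forms of pyruvate kinase.

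Ldha, the lactate dehydrogenase subunit that favors lactate formation, was 1518, 1416, 2040.4, 1349 and 1338 CPM in the Control libraries of iWAT and 1172, 864, 701, 782 and 630.1 in Ai-α4KO iWAT. All 5 Ai-α4KO libraries were lower, but the difference was short of 2-fold (log2 fold change -0.89 ± 0.19 (SE), adjusted p = 0.0019). In BAT Ldha was 2334, 2343, 2178, 2212 and 1621 CPM in Control and 1679, 1664, 1825, 2659.6 and 2116 in Ai-α4KO, with Ai-α4KO 4, which had the highest muscle marker sum of all libraries at 48127 CPM, above every Control library (log2 fold change -0.14 ± 0.16 (SE), adjusted p = 0.481). Ai-α4KO 4 was also the highest of its group in Aldoa, Pgk1 and Pkm, and without it none of the 4 genes was called in BAT either, with Aldoa at -0.62 (adjusted p = 0.014), Pgk1 at -0.33 (adjusted p = 0.036), Pkm at -0.55 (adjusted p = 0.0060) and Ldha at -0.21 (adjusted p = 0.223). With the muscle marker sum as a covariate none of the 4 genes was called in BAT either. The muscle sums of the BAT groups did not overlap, so the part of muscle RNA in these values cannot be told apart. The sign of this small BAT difference of Ldha turned without normalization factors, to 0.11.

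Slc16a3, the lactate exporter MCT4, was 1.78, 7.59, 5.62, 6.98 and 6.41 CPM in Control BAT and 26.3, 36.2, 35.8, 38.4 and 37.8 in Ai-α4KO BAT, without overlap, and rose (log2 fold change 2.58 ± 0.30 (SE), adjusted p = 1.5e-05). Muscle markers rose in the same libraries, with 8 of the 10 called higher, and all 8 macrophage markers were called higher there too. With the muscle marker sum as a covariate the Slc16a3 difference was smaller, 1.61, and still called (adjusted p = 5.4e-04). Every Ai-α4KO BAT library had a higher muscle sum than any Control BAT library, so genotype and muscle RNA are largely confounded in that fit. The part of muscle or macrophages in the change of Slc16a3 was not tested. In iWAT Slc16a3 was 7.48, 3.67, 1.54, 12.01 and 4.34 CPM in Control and 39.5, 15.97, 13.97, 11.5 and 13.05 in Ai-α4KO. The ranges overlapped through Control 4, which shares its high muscle markers with Ai-α4KO 1, the highest library, and Slc16a3 was not called (log2 fold change 1.69 ± 0.52 (SE), adjusted p = 0.017). Without Control 4 it was called, at 2.13 (adjusted p = 0.0048). It was also called by DESeq2 (1.67, adjusted p = 9.4e-04) and with the muscle marker sum as a covariate (1.98, adjusted p = 2.4e-04). In all, 9 of 23 alternatives called it and 14 did not, and without Ai-α4KO 1 it was 1.22 (adjusted p = 0.044).

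The count of called genes in iWAT depended on the 2 muscle-high libraries. With Control iWAT 4 and Ai-α4KO iWAT 1 left out together, a choice made after seeing the data, 8 of the 10 genes were called in iWAT (23.3% of all 14610 genes tested then, against 22.0% in the full comparison), with Pkm at -1.03 (adjusted p = 0.0014), Ldha at -1.09 (adjusted p = 5.5e-04) and Slc16a3 at 1.66 (adjusted p = 0.0051) added to the 5 of the full comparison. Pfkp and Pgk1 were still not called, at 0.57 (adjusted p = 0.020) and -0.33 (adjusted p = 0.164).

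The isozymes of a step can be compared with each other on the FPKM scale, which divides by transcript length, and their shares of the summed FPKM were taken as a description, with no test. Hexokinase in iWAT went from mostly Hk2 to a mixture. The Hk2 share was 77.3% ± 11.1 (SD, n = 5) of Control and 43.4% ± 4.62 of Ai-α4KO hexokinase there, while the Hk3 share was 8.18% ± 4.63 and 31.01% ± 1.75. The Hk3 shares of the libraries ran from 3.52% to 14.96% in Control and from 29.01% to 33.7% in Ai-α4KO. In BAT, Hk2 made up 93.3% ± 2.19 in Control and 76.3% ± 6.71 in Ai-α4KO, and Hk3 0.479% ± 0.382 and 10.5% ± 2.34. The summed hexokinase FPKM was 38.7 ± 9.81 in Control and 31.2 ± 4.91 in Ai-α4KO iWAT, and 85.8 ± 18.3 and 53.99 ± 1.42 in BAT, so the sum moved less in iWAT than its parts.

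Phosphofructokinase took a different form in each depot. In iWAT the Pfkl share was 49.9% ± 13.9 in Control and 24.5% ± 3.59 in Ai-α4KO, and the Pfkp share was 23.5% ± 6.16 and 60.3% ± 14.6. In BAT the Pfkl share was 54.6% ± 9.83 in Control and 14.3% ± 5.29 in Ai-α4KO, but there the muscle isozyme Pfkm held 33.3% ± 11.9 and 69.9% ± 12.6. Pfkm also held 60.7% of the sum in Control iWAT 4 and reached 39.3% in Ai-α4KO iWAT 1, the libraries with high muscle markers, and at most 26.8% in the other iWAT libraries. The part of muscle RNA in the Pfkm share was not tested.

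Pfkfb3 held most of the FPKM of its family in all groups, at 73.5% ± 2.69 in Control iWAT, 65.05% ± 5.03 in Ai-α4KO iWAT, 81.7% ± 2.98 in Control BAT and 59.5% ± 5.24 in Ai-α4KO BAT, and the family's summed FPKM was 210.3 ± 25.3 in Control and 87.6 ± 22.2 in Ai-α4KO iWAT, and 222 ± 25.98 and 87.3 ± 17.6 in BAT. Aldoa was over 99% of aldolase FPKM in every library. Against Ldhb, the subunit that favors lactate use, Ldha made up 82.5% ± 4.27 of lactate dehydrogenase FPKM in Control and 92.7% ± 4.24 in Ai-α4KO mice for iWAT, and 54.4% ± 4.55 and 77.1% ± 4.69 for BAT. This shift came with lower Ldhb, which fell in both depots (log2 fold change -2.304 ± 0.44, adjusted p = 0.001 in iWAT and -1.58 ± 0.29, adjusted p = 5.4e-04 in BAT). Slc16a3 was a minor part of the summed FPKM of 3 monocarboxylate transporters, Slc16a1, Slc16a3 and Slc16a7, at 7.36% ± 5.65 in Control and 14.3% ± 7.83 in Ai-α4KO iWAT, and 2.21% ± 1.05 and 13.4% ± 2.40 in BAT.

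**Figure D3:**
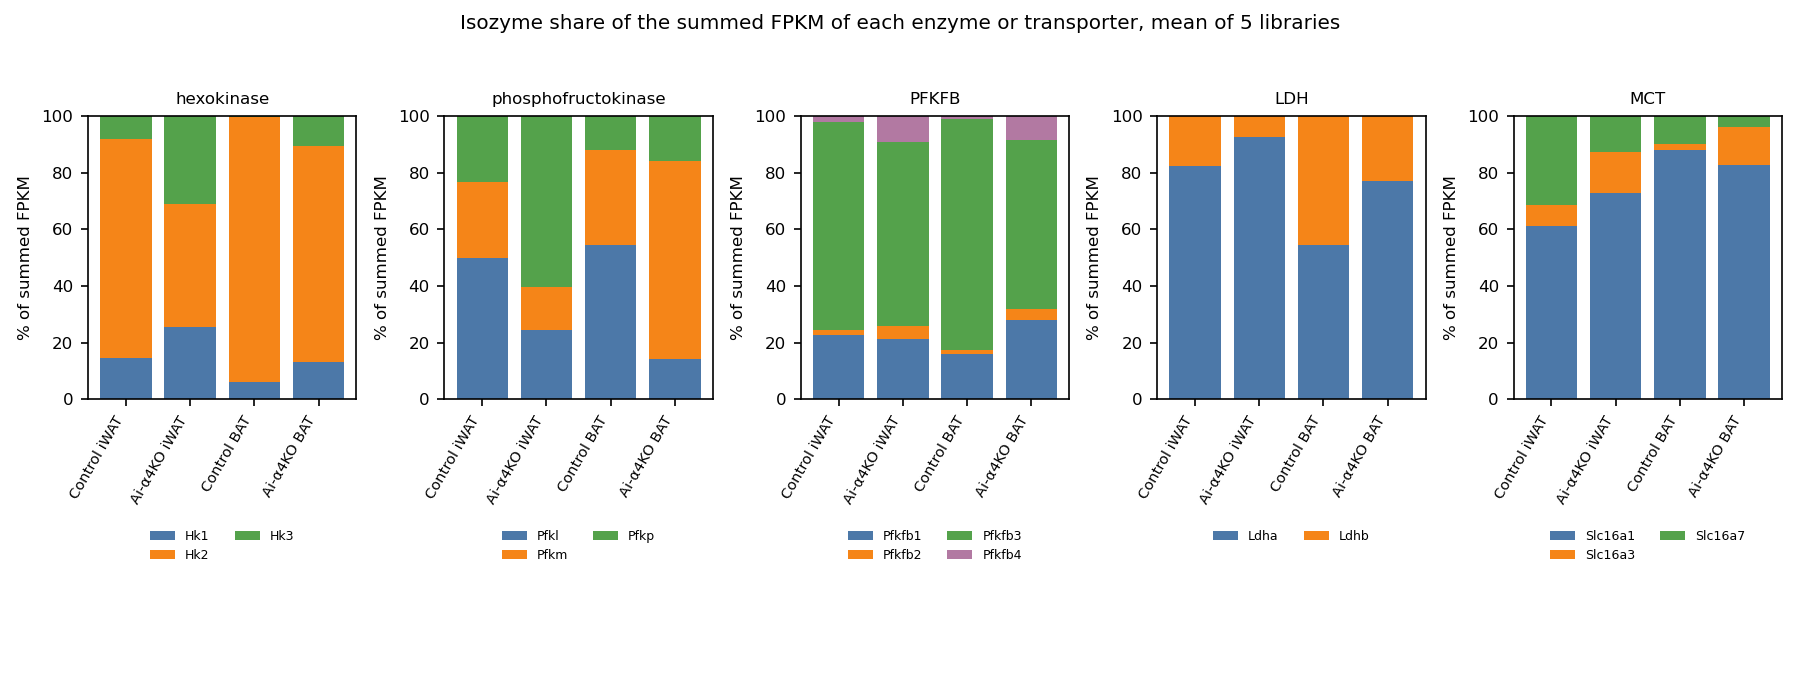
Mean share of each isozyme in the summed FPKM of its enzyme or transporter family (stacked bars, percent, mean of 5 libraries) for hexokinase, phosphofructokinase, PFKFB, lactate dehydrogenase (LDH) and monocarboxylate transporters (MCT) in the 4 groups. Hk3 goes from 8.18% to 31.01% of hexokinase in iWAT, Pfkp leads phosphofructokinase in Ai-α4KO iWAT at 60.3%, and Pfkm leads it in Ai-α4KO BAT at 69.9%.

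The comparison of the depots asks how BAT differs from iWAT for these genes. In Control mice Hk2, Pfkl, Pgk1 and Pkm were higher in BAT and Hk3 was lower, that is 4 of 10 called higher, against 7.22% of 14260 genes tested, and 1 called lower, against 14.7%. Pgk1 had a log2 difference of 1.41 ± 0.15, adjusted p = 2.8e-05, Pkm of 1.33 ± 0.17, adjusted p = 7.0e-05, Hk2 of 1.58 ± 0.25, adjusted p = 3.0e-04, and Pfkl of 1.54 ± 0.24, adjusted p = 3.3e-04. Hk3 differed by -2.77 ± 0.39, adjusted p = 1.6e-04, with all 8 macrophage markers and 3 of 6 neutrophil markers also called lower in Control BAT. By CPM 5 of the 10 lay higher in every BAT library (18.1% of all genes) and 1 lower (19.5%). Aldoa missed the 2-fold limit narrowly (0.99 ± 0.21, adjusted p = 0.0021), Pfkfb3 (0.41 ± 0.13, adjusted p = 0.024) and Ldha (0.44 ± 0.15, adjusted p = 0.03) did not pass, and Slc16a3 gave -0.067 ± 0.50, adjusted p = 0.922. Muscle markers summed to 999 to 10207 CPM in Control BAT, and to 17.99 to 193 in Control iWAT apart from Control iWAT 4 at 7685. Of the 10 markers 1 was called higher in BAT, and their part in these values was not tested.

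In Ai-α4KO mice 6 of 10 genes were called higher in BAT than in iWAT, against 8.40% of 14703 genes, and 0 lower, against 3.09%. In the lower direction 1 gene, Hk3, had an unadjusted p under 0.05 by edgeR, and DESeq2 and limma also called 0. The 6 were Aldoa (1.88 ± 0.29, adjusted p = 7.7e-04), Hk2 (1.77 ± 0.15, adjusted p = 5.2e-05), Pkm (1.69 ± 0.22, adjusted p = 3.8e-04), Pgk1 (1.504 ± 0.17, adjusted p = 2.0e-04), Ldha (1.31 ± 0.21, adjusted p = 9.6e-04) and Pfkl (1.23 ± 0.24, adjusted p = 0.0029). Aldoa and Ldha were called here and not between the Control depots, where Aldoa lay at the 2-fold limit and was called by DESeq2 (1.01, adjusted p = 4.6e-06). The test of that difference is the interaction given next. Hk3 lay at -0.63 ± 0.16, adjusted p = 0.011. By CPM 6 lay higher in every BAT library (13.8% of all genes) and 1, Hk3, lower (11.4%). These groups also differed in muscle markers, and with the marker sum as a covariate 0 of the 6 was called, with values from 0.41 for Pfkl to 1.29 for Hk2 and adjusted p from 0.028 to 0.475. Nearly all other calls were lost as well, since 0.0680% of the 14703 genes were called higher in that fit and 0.163% lower. The 5 Ai-α4KO BAT libraries all had higher muscle sums than the 5 Ai-α4KO iWAT libraries, so depot and muscle RNA are largely confounded in that fit.

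Whether the response to α4 loss differed between depots was asked with the genotype by tissue interaction term of a fit of all 20 libraries. By edgeR Hk3 was the only gene of the 10 that was called, at 2.04 ± 0.41, adjusted p = 0.0035, where a positive value is a larger rise or smaller fall in BAT, against 3.26% of 15230 genes called in that direction, 1.60% in the other and 4.86% in either. The split over all genes moved with the scaling, from 496 and 244 genes to 604 and 115 without normalization factors. Of the 8 macrophage markers 6 were called in the same direction, and of 6 neutrophil markers 0 by edgeR, with 4 at an unadjusted p under 0.05, 3 called by DESeq2 and 0 by limma. With limma on log2(FPKM + 1) the Hk3 interaction was 0.77 and not called (adjusted p = 0.056), on a scale that compresses low levels. Ldha (0.78 ± 0.25, adjusted p = 0.042) and Aldoa (0.81 ± 0.35, adjusted p = 0.126) did not pass with edgeR, although the fall of Aldoa was called in iWAT and not in BAT, while DESeq2 called Ldha (0.84, adjusted p = 0.0087). Without Ai-α4KO iWAT 1 the interactions of Hk3, Ldha and Aldoa were all called, 3 of 10, with 5.55% of 15375 genes called in that direction. For Hk2, Pfkl, Pfkfb3, Pgk1, Pkm, Pfkp and Slc16a3 the interaction lay between -0.47 and 0.93 with adjusted p of at least 0.264, which does not show that their responses were alike.

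On the FPKM scale the 10 genes spanned a wide range of levels. Aldoa had the highest mean of the 10 in each group, at 1262 ± 266 (SD, n = 5) in Control iWAT, 559 ± 264 in Ai-α4KO iWAT, 2235 ± 425 in Control BAT and 1824 ± 323 in Ai-α4KO BAT. Ldha came next, at 708 ± 90.8, 422 ± 113, 858 ± 111 and 932 ± 146 FPKM in the same order, so that the Aldoa and Ldha ranges overlapped in Ai-α4KO iWAT. Pkm followed at 327 ± 57.7, 212 ± 69.8, 730.4 ± 75.7 and 611 ± 74.6 FPKM. Pgk1 and Pfkfb3 lay close in Control iWAT, at 200.02 ± 30.9 and 154 ± 17.7 FPKM, and far apart in Ai-α4KO BAT, at 462 ± 50.9 and 52.4 ± 13.7. Pfkl, Hk2 and Pfkp lay between 13.5 and 125 FPKM as group means, with Pfkp lowest of these 3 in Control and highest of them in Ai-α4KO iWAT. Hk3 and Slc16a3 were the lowest, with group means from 0.375 to 9.71 FPKM for Hk3 and from 1.71 to 12.3 for Slc16a3.

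The rest of the pathway was followed through a list of 22 other glycolytic enzymes, of which 19 could be tested. In iWAT 4 of the 19 were called lower (10.7% of all genes) and 0 higher (11.3%) by edgeR, with 2 higher at an unadjusted p under 0.05 and 0 by DESeq2, and the median log2 fold change was -0.58. The 4 were Pfkfb1 (-1.49 ± 0.19, adjusted p = 6.8e-05), Bpgm (-1.08 ± 0.15, adjusted p = 1.1e-04), Ldhb, given above, and the enolase Eno1 (-1.405 ± 0.30, adjusted p = 0.002). Bpgm is best known from red cells, whose markers fell as well, 3 of 3 tested in each depot, with sums of 636 to 1024 CPM in Control against 150.04 to 406 in Ai-α4KO for iWAT and 635 to 1277 against 211 to 738 for BAT. Bpgm itself was not called in BAT (-0.12 ± 0.24, adjusted p = 0.686), and the part of red cells in its change in iWAT was not tested. In BAT 5 were called higher (18.2% of all genes) and 4 lower (13.3%), with a median of 0.10. Those lower were Eno1 (-1.801 ± 0.17, adjusted p = 2.6e-06), Pgam1 (-1.19 ± 0.12, adjusted p = 6.0e-06), Gpi1 (-1.11 ± 0.16, adjusted p = 6.9e-05) and Ldhb. Pfkfb4, an inducible relative of Pfkfb3, was higher (1.601 ± 0.16, adjusted p = 3.8e-06), as were Pfkm (1.27 ± 0.36, adjusted p = 0.0081) and, named after their values were seen, the muscle forms Eno3 (2.07) and Pgam2 (2.19) and the neuronal enolase Eno2 (1.73). Of the skeletal muscle markers 8 of 10 were called higher in the same libraries, with the sums given above, and their part in these values was not tested. The enzymes between Aldoa and Pgk1 were not called, since Tpi1 stood at -0.50 ± 0.19, adjusted p = 0.039 in iWAT and 0.48 ± 0.17, adjusted p = 0.03 in BAT, and Gapdh at -0.88 ± 0.30, adjusted p = 0.027 and -0.43 ± 0.15, adjusted p = 0.024. Of the 19, 1 passed the interaction test by edgeR, Pfkfb4 (0.93 ± 0.21, adjusted p = 0.0069), while DESeq2 called 4 (Bpgm, Tpi1, Pfkfb4 and Pgam1).

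Among 4 tested genes of other monocarboxylate transporters and their chaperones, Emb, which encodes embigin, a membrane partner of such transporters, rose in both depots (log2 fold change 2.41 ± 0.20, adjusted p = 5.6e-06 in iWAT and 4.29 ± 0.23, adjusted p = 6.2e-08 in BAT), and its interaction was called (1.91 ± 0.30, adjusted p = 7.3e-04). Bsg, which encodes basigin, the partner of MCT1 and MCT4, was not called (-0.75 ± 0.14, adjusted p = 9.4e-04 and -0.12 ± 0.14, adjusted p = 0.463). Slc16a1, encoding MCT1, was not called either (0.77 ± 0.28, adjusted p = 0.034 and -0.20 ± 0.17, adjusted p = 0.323), and Slc16a7, encoding MCT2, fell in BAT (-1.37 ± 0.12, adjusted p = 1.8e-06).

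Genes of pyruvate entry into mitochondria were mostly lower. Of 13 tested, 11 fell and 1 rose in iWAT, with a median of -1.63, while in BAT 11 fell and 2 rose, with a median of -1.42, beside the same shares of all genes as above. Pdha1, the catalytic subunit of the pyruvate dehydrogenase complex, fell (-2.34 ± 0.18, adjusted p = 3.6e-06 in iWAT and -1.86 ± 0.20, adjusted p = 7.5e-06 in BAT), as did its partner Dlat (-1.82 and -1.75). The kinase Pdk1, which turns the complex off, also fell (-2.35 and -1.57), as did the phosphatase Pdp2 (-1.87 and -1.97). Pdk3, another kinase of the complex, rose in both depots (1.78 ± 0.16, adjusted p = 7.8e-06 and 2.45 ± 0.17, adjusted p = 2.3e-07). Beside these, the log2 fold changes of Pkm and Ldha were of smaller size in both depots. Of the 13 genes 0 passed the interaction test by edgeR, with 3 at an unadjusted p under 0.05 and 1 called by DESeq2.

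**Figure D4:**
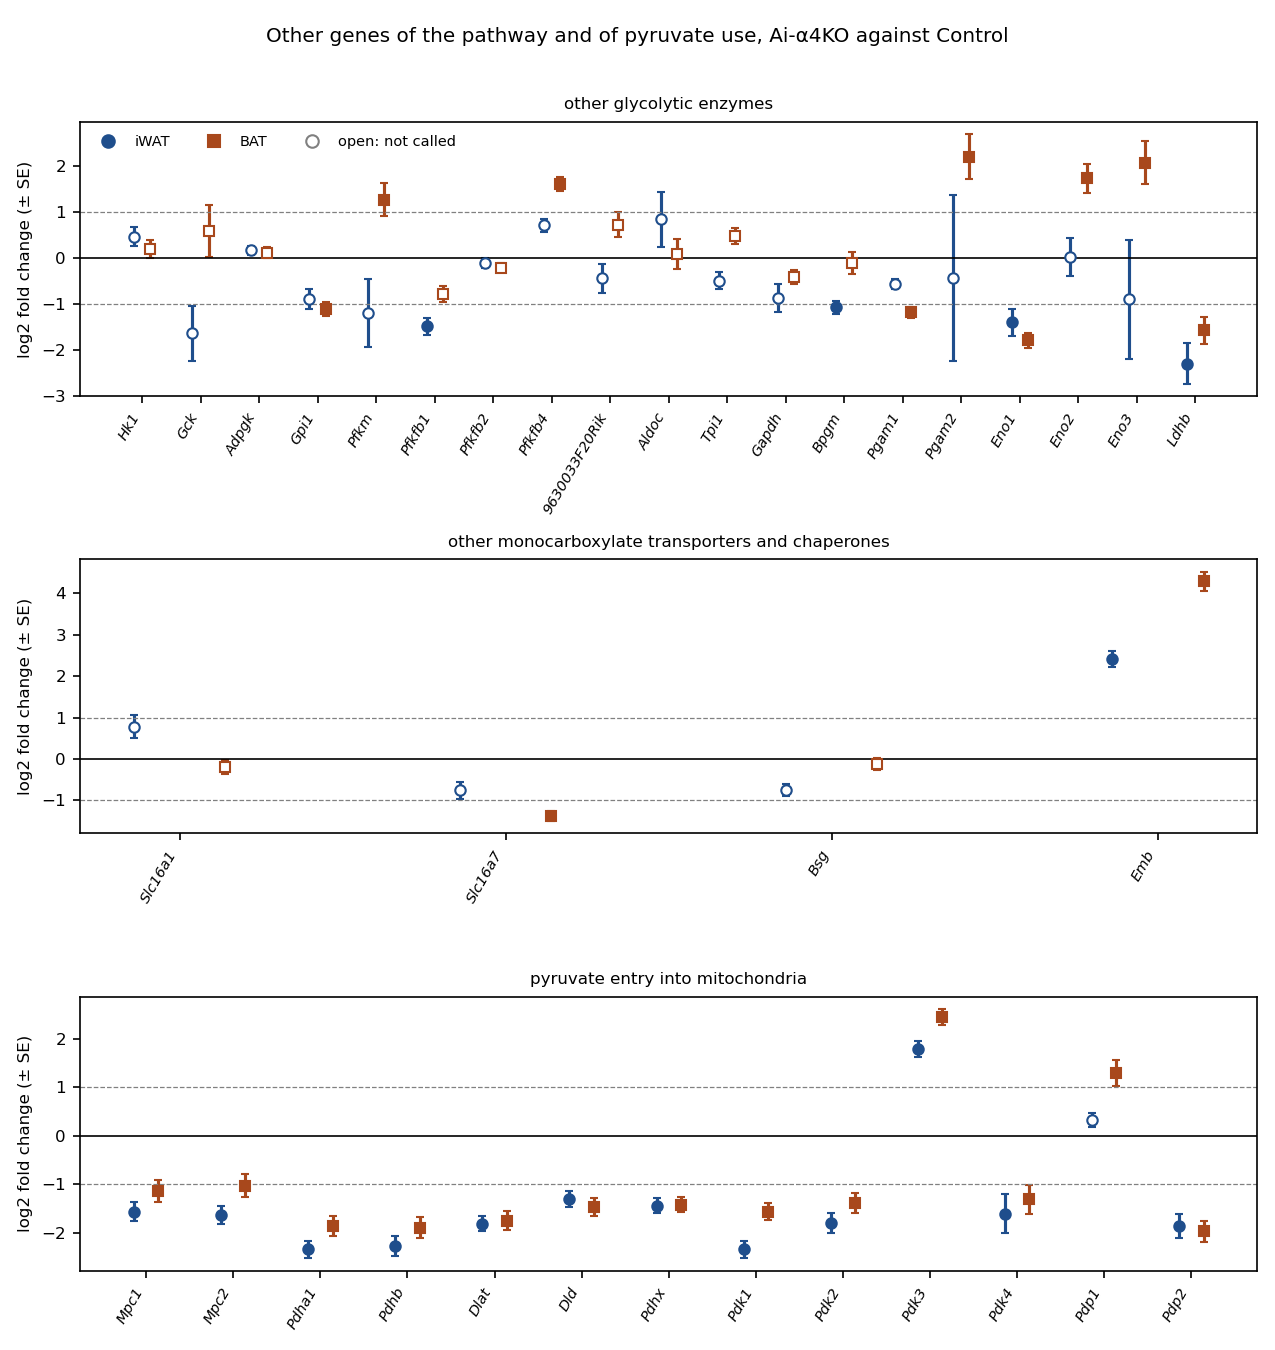
Log2 fold change of Ai-α4KO against Control with ± 1 SE for the tested genes of 3 lists (panels), as circles for iWAT and squares for BAT, filled where called, with dashed lines at 2-fold and Tigar under its older symbol 9630033F20Rik. Nearly all pyruvate entry genes lie below -1 in both depots, Emb and Pdk3 lie above 1 in both, and Pgam2, Eno3 and Pfkm have wide bars in iWAT.

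Of 12 transcriptional regulators of glycolysis, 2 rose and 2 fell in iWAT, against 11.3% and 10.7% of all genes, while in BAT 2 rose and 3 fell, against 18.2% and 13.3%. Hif1a, the hypoxia-inducible subunit, rose in iWAT (1.55 ± 0.18, adjusted p = 3.1e-05) and stayed just under 2-fold in BAT (0.99 ± 0.16, adjusted p = 1.9e-04). Its relative Epas1 fell in both (-1.39 and -1.57), Myc rose in both (1.11 and 1.26), and Mlxipl, which encodes the carbohydrate-response factor ChREBP, fell in both (-2.13 ± 0.19, adjusted p = 8.1e-06 and -2.04 ± 0.18, adjusted p = 1.6e-06). Endothelial markers were lower in the same libraries, with 3 of 5 called in iWAT and 4 of 5 in BAT, and summed to 361 to 477 CPM in Control against 207 to 251 in Ai-α4KO for iWAT and to 709 to 1006 against 258 to 337 for BAT. Their part in the change of Epas1, which endothelial cells express strongly, was not tested. Of 14 hypoxia-responsive genes, 1 rose and 3 fell in iWAT, while in BAT 4 rose and 2 fell, beside the same shares of all genes. Car9 rose in both (2.64 and 3.37), Vegfa fell in both (-1.997 and -1.64), and the glucose transporter Slc2a1 and the adenylate kinase Ak4 rose in BAT (1.29 and 1.19). The hypoxia-responsive genes thus did not move in 1 direction, with medians of -0.12 in iWAT and 0.36 in BAT.

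**Figure D5:**
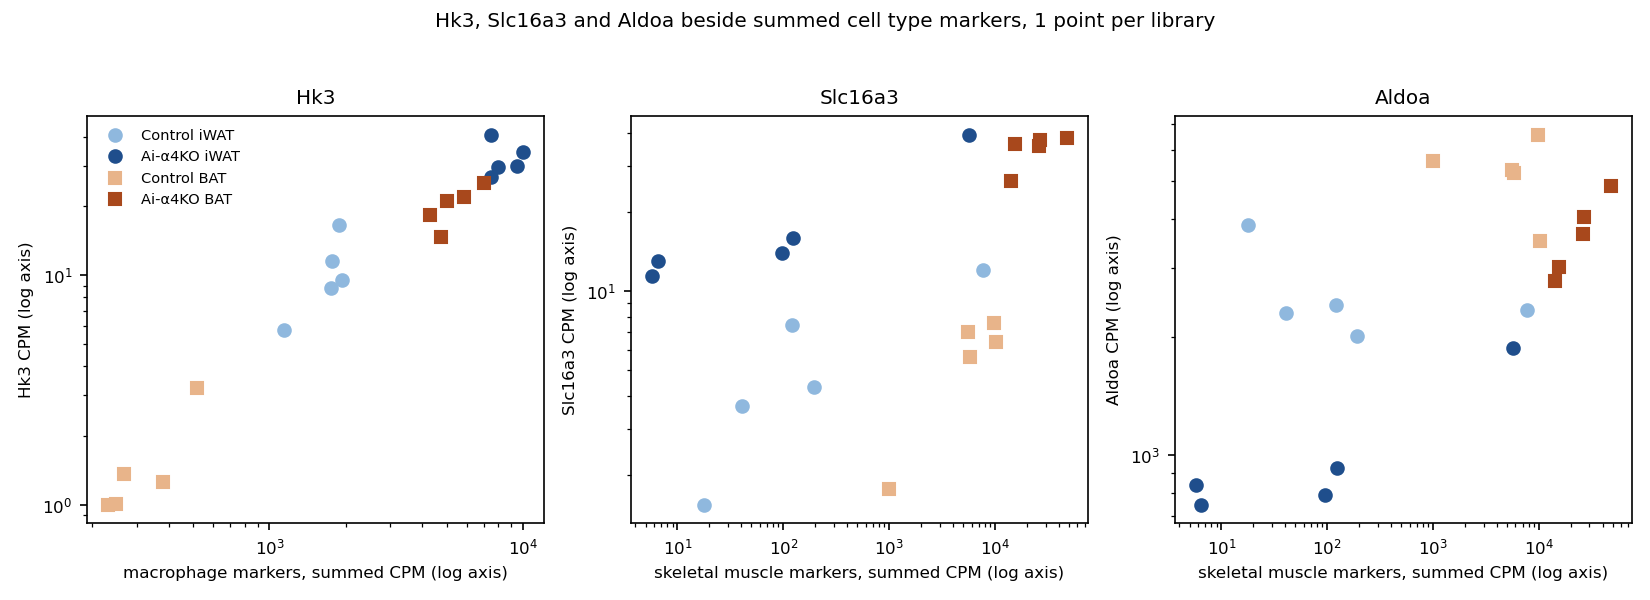
CPM of Hk3 against the summed CPM of 8 macrophage markers, and CPM of Slc16a3 and Aldoa against the summed CPM of 10 skeletal muscle markers, 1 point per library, all on log axes. Hk3 is low where macrophage markers are low and high where they are high across the 4 groups, and the muscle-high iWAT libraries, Control 4 and Ai-α4KO 1, hold the highest Slc16a3 of their groups.

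Over the 20 libraries, the genes most like each of the 10 by Pearson's r of log2 CPM were described without a test, since the points share the 4 groups. They were sought among the 15220 genes outside the 10, so the 10 were not compared with each other in this ranking. Hk3 was most like C1qb (r = 0.993) and C1qa (r = 0.993), complement genes made by macrophages. Hk2 was most like Ppara (r = 0.964) and Mkrn2 (r = 0.958). Pfkl was most like Mrps5 (r = 0.988) and Tufm (r = 0.984), which serve mitochondrial translation. Pgk1 was most like Mrpl42 (r = 0.971) and Plet1os (r = 0.970). Aldoa was most like Syngr1 (r = 0.971) and Chchd10 (r = 0.971), Pfkfb3 like Sh3d21 (r = 0.967) and Rad9b (r = 0.966), and Slc16a3 like Sel1l3 (r = 0.957) and Spsb4 (r = 0.922). Ldha was most like Stard10 (r = 0.955) and the glycolytic gene Gapdh (r = 0.952), but Ldha and Aldoa were closer to each other (r = 0.983) than to any of these partners. Pfkp had the loosest partners of those given, the lipid droplet gene Plin2 (r = 0.908) and Maff (r = 0.898).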

How the data were processed

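The members and gene lists were chosen with earlier results of these data known. Stranded mRNA libraries were sequenced as paired reads, and the submitters' processing notes name bcl2fastq 2, STAR 2.5.3a and the mm10 build. The counting tool, annotation release and use of strand are not given in the sources used here. The authors deposited 1 table of 25219 genes with an expected count per gene and library, without normalization, of which 76.7% of nonzero values are whole within 1e-6, and an FPKM value, the count per transcript length and library total. It holds 0 genes of chrM and 0 per-sample columns that could not be mapped.

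Expected counts were rounded and tested in R 4.3.3 with edgeR 4.0.16 (filterByExpr, TMM, quasi-likelihood test, Benjamini-Hochberg adjustment over all genes tested), with 5 libraries per group, within the groups compared, and over all 20 libraries for the interaction. The calling threshold was an adjusted p under 0.01 with at least a 2-fold change, and for the interaction the adjusted p alone. Log2 CPM used a prior count of 2. FPKM served for levels and isozyme shares. Alternatives were DESeq2 1.42.0, limma 3.58.1 on log2(FPKM + 1) and log2(FPKM + 0.1) for genes at 0.5 FPKM or more in at least 5 libraries, other normalizations, no filter, 10 counts as the minimum of every library, a threshold of 0.05, a replicate block, 1 fit of all libraries, and each library left out. The muscle covariate and the joint removal of libraries were added after seeing the data. The steps were tested on simulated data.

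Named are the 10 members, 11 fixed pathway genes (Hk1, Gpi1, Pfkm, Tpi1, Gapdh, Pgam1, Eno1, Ldhb, Slc16a1, Bsg, Hif1a), Igbp1, up to 4 called genes per list and comparison with the lowest adjusted p, and the 2 genes most like each member by Pearson's r (those of Pkm are not reported here). Others are said to be chosen after their values were seen. Symbols were matched by name, and Tigar (9630033F20Rik) and Adgre1 (Emr1) by Entrez ID, while Ly6g was not matched. Promoters come from RefSeq on GRCm38.p6, with figures drawn in matplotlib 3.10.9.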

Additional observations from a re-analysis of the deposited data

Results flagged for a closer look

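Of 144 sets of 5 libraries examined (the members, Igbp1, isozyme shares apart from aldolase, and marker sums in each group), 22 had a highest or lowest library farther from the rest than Dixon's 95% limit of 0.71 for 5 values, where chance gives about 1 in 20 sets. The sets are not independent, since the shares of an enzyme are parts of the same sum and the same libraries recur. The count of 22 therefore cannot be compared directly with that rate. Ai-α4KO iWAT 1 stood out in Aldoa (1874 CPM, others 747 to 927), Slc16a3 (39.5 CPM, others 11.5 to 16.0), the Pfkm share (39.3%, others 7.91% to 10.3%), the Pfkp share (34.7%), the Slc16a3 share (28.2%), the Pfkfb1 share (28.1%, others 18.4% to 20.1%) and the muscle marker sum (5694 CPM). Control iWAT 4 stood out in the muscle marker sum (7685 CPM), the Pfkm share (60.7%), the Pfkl share (26.1%) and the macrophage marker sum (1141 CPM). Control iWAT 3 was high in Aldoa (3868 CPM, others 2014 to 2422) and Ldha (2040.4 CPM, others 1338 to 1518), and Control iWAT 1 had a high Hk1 share (26.2%). Ai-α4KO iWAT 4 was high in Pfkfb3 (483 CPM, others 248 to 302) and low in its Ldha share (85.4%), with Ldhb as the rest (14.6%).

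In BAT, Control 4 was high in Hk3 (3.21 CPM, others 0.997 to 1.35) and in its Hk3 share (1.15%). Control BAT 5 was low in Pfkp (73.9 CPM, others 158 to 190.3) and Ldha (1621 CPM, others 2178 to 2343), and Ai-α4KO BAT 1 was low in Slc16a3 (26.3 CPM, others 35.8 to 38.4).

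Of 72 genes of the members and pathway lists, 4 differed between depots in their response to α4 loss by the interaction test of edgeR: Hk3 at 2.04, Emb at 1.91, Ak4 at 1.66 and Pfkfb4 at 0.93, each with the higher log2 fold change in BAT. That is near the 4.86% of all genes that passed the same test, while DESeq2 called 13 of the 72, beside 10.8% of all genes, and limma 4.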

How the results depend on the processing

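The calls of Hk3, Pfkl and Pfkfb3 in both genotype comparisons were kept in every alternative run. In iWAT 5 genes were called, 8 with the muscle-high libraries left out, and 5 to 6 with 1 library left out. In BAT 5 genes were called and in Control depots 5, without a count off by more than 1.5 times in any alternative. Between the Ai-α4KO depots 6 became 0 with the muscle covariate and ran from 6 to 7 with 1 library left out. In the interaction 1 became 2 with DESeq2 (Hk3 and Ldha), 2 at an adjusted p below 0.05, 0 with limma on log2(FPKM + 1), 3 without the muscle-high libraries and 1 to 3 with 1 library left out.

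The replicate numbers did not pair the samples, since the deviations of same-numbered libraries correlated from -0.45 to 0.24 and at most 2 of 5 pairs passed 0.1 in any comparison. With the replicate block the interaction count was 0, with Hk3 at 2.03 (adjusted p = 0.010), and the blocked count of genes in the other comparisons stayed within 1.5 times.

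By CPM in place of FPKM the shares became 52.4% for Hk2, 22.2% for Hk3 and 75.5% for Pfkfb3 in Ai-α4KO iWAT, 6.68% for Hk3, 73.2% for Pfkfb3, 83.2% for Ldha and 8.46% for Slc16a3 in Ai-α4KO BAT, 85.9% for Pfkfb3 and 87.4% for Ldha in Control iWAT, and 90.6% for Pfkfb3 and 63.8% for Ldha in Control BAT, since transcript length is then not divided out.

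Signs turned in values that were not called. Ldha in BAT became 0.11 without normalization factors and 0.12 in both limma fits, where the median of all genes also moved, by 0.26, 0.20 and 0.23. Slc16a3 between Control depots became 0.11 with the replicate block, 0.36 without the muscle-high library, 0.81 without Control iWAT 1 and 4, and ran from -0.31 to 0.36 with 1 library left out. Between Ai-α4KO depots, Slc16a3 became -0.34 with the muscle covariate, Pfkp became -7.8e-05 without normalization factors, -0.026 and -0.028 with limma, and Pfkfb3 became -0.14 without normalization factors, -0.049 with upper quartiles, -0.12 and -0.13 with limma, -0.026 in 1 fit of all libraries and -0.026 without the muscle-high library, and ran from -0.11 to 0.24 with 1 library left out. In the interaction, the muscle covariate gave -0.085 for Hk2 and -0.059 for Pgk1, the removal of muscle-high libraries gave 0.10 for Pfkl, and with 1 library left out Hk2 ran from -0.048 to 0.36 and Pgk1 from -0.11 to 0.19. The cause was not tested.

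Counts over all genes also moved. Genes lower in Ai-α4KO numbered 1559 in iWAT and 1910 in BAT, and 783 and 808 with limma on log2(FPKM + 1), while 1265 in BAT were lower without normalization factors. The share of called genes that were higher in BAT went from 57.8% to 72.0% without normalization factors, in Ai-α4KO depots from 73.1% to 57.0%, and in Control depots from 33.0% to 22.9%. With the muscle covariate the called genes between Ai-α4KO depots went from 1689 to 34, and the share higher in BAT from 73.1% to 29.4%. In the interaction 740 genes were called, 2297 at an adjusted p below 0.05, 1640 with DESeq2 and 474 to 1019 with 1 library left out, and the 244 genes on the side of a smaller rise or larger fall in BAT ran from 93 to 264 with 1 library left out and were 115 without normalization factors, where the share on the other side went from 67.0% to 84.0%. Hk3 in Control BAT rests on 22 to 91 counts per library.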
